A study of Mus musculus with 17 samples.

Results

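The genes described here are 10 components of transforming growth factor beta (TGF-beta) and bone morphogenetic protein (BMP) signalling, measured in sorted mouse lung alveolar type 2 (AT2) cells: the ligand genes Tgfb1, Tgfb2 and Bmp4, the receptor genes Tgfbr1 and Tgfbr2, the intracellular mediators Smad3 and Smad7, and the BMP target genes Id1, Id2 and Id3. They were chosen by symbol, and all 10 were found by their Ensembl identifiers among the 43430 gene rows of each of the study's count tables. A list of 59 further genes of the same pathways, sorted into 8 roles, was followed beside them.

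The study compared the drug ISRIB, a small molecule that blocks the translational arm of the integrated stress response, with vehicle, and in a separate experiment compared bleomycin, an antibiotic that injures the alveolar epithelium and is followed by fibrosis, with no injury. All 17 libraries came from AT2 cells of C57BL/6J mice aged 2 months, separated by flow cytometry. The poly(A) experiment held 4 vehicle libraries and 4 ISRIB libraries, from uninjured mice, with cells taken 24 h after the agent and libraries built from 3 ng of RNA with a poly(A) kit. The total-RNA experiment held 4 naive libraries and 5 bleomycin libraries, the latter taken 14 days after bleomycin, built from 0.35 ng of RNA with a total-RNA kit. All 9 libraries of that experiment carry vehicle as their treatment label, and none of them is labelled with ISRIB. The labels give no drug dose and do not say that the replicates of a group were separate mice, so the p-values measure only the spread between these libraries. Because the kits differed, every comparison was made within a kit.

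TGF-beta ligands are secreted in a latent form bound to matrix proteins, are released by integrins and thrombospondin, and signal through a pair of receptor kinases to SMAD2 and SMAD3. BMP ligands use related receptors and SMAD1, SMAD5 and SMAD9, and switch on the ID genes, whose proteins hold basic helix-loop-helix transcription factors inactive. In the adult alveolus, BMP signalling is known to restrain AT2 cell division, and TGF-beta activity is known to accompany the passage of AT2 cells to type 1 (AT1) cells and the fibrotic response of neighbouring fibroblasts.

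Libraries held 10493574 to 15727139 counts with the poly(A) kit and 3295257 to 6333166 with the total-RNA kit, so low genes are less precise in the bleomycin comparison. The fitted biological coefficient of variation was 7.66% and 21.1% in the poly(A) and total-RNA libraries. All 10 AT2 markers had counts, and their summed level ran from 208710 to 217750 CPM (normalised counts, each count over the scaled library size in units of 1e6 counts) across the poly(A) libraries, from 87638 to 96750 CPM in naive and from 50548 to 95102 CPM in bleomycin libraries. The lowest were bleomycin replicates 1 and 2, at 50548 and 60290 CPM. In every library the AT2 sum was far above that of each other marker list. Markers listed for other cell types had counts too. AT1 markers summed to 2414 to 2741 CPM across the poly(A) libraries. Airway markers summed to 3906 to 4363 CPM in vehicle and to 4223, 3333, 4090 and 2421 CPM in ISRIB libraries 1 to 4. Endothelial markers summed to 167 to 198 CPM in vehicle and 174 to 195 CPM in ISRIB libraries. Fibroblast and smooth-muscle markers summed to 18.4 to 28.5 and 15.4 to 26.4 CPM. In vehicle libraries Ager alone averaged 1439 CPM of the AT1 sum, and Esam 131 CPM of the endothelial sum. Whether this RNA came from other cells was not tested. In bulk RNA of this kind, fewer cells of a type and less RNA per cell cannot be told apart.

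Set per kilobase of exon so that genes can be compared, Id2 was the most abundant of the 10 genes in vehicle libraries, at 93.3 ± 14.4 CPM per kb (SD, n = 4). Bmp4 followed at 41.0 ± 1.28 CPM per kb, then Tgfbr2 at 21.3 ± 0.51, Smad3 at 13.6 ± 0.55 and Tgfbr1 at 8.77 ± 0.57 CPM per kb. Smad7, Tgfb1 and Id1 lay together at 5.66 to 5.71 CPM per kb, with overlapping libraries. Id3 was lower, at 1.28 ± 0.61, and Tgfb2 the lowest, at 0.18 ± 0.02 CPM per kb. In naive libraries the order by level per kb was again led by Id2 at 58.3 and Bmp4 at 22.2 CPM per kb and closed by Id3 at 0.88 and Tgfb2 at 0.07 CPM per kb, and Tgfbr2 and Smad3 overlapped there. In bleomycin libraries Id2 at 60.3 ± 14.5 and Bmp4 at 30.8 CPM per kb still led, while Tgfb1, Id3 and Tgfb2, at 2.91, 2.47 and 1.89 CPM per kb, overlapped one another at the low end.

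**Figure D1:**
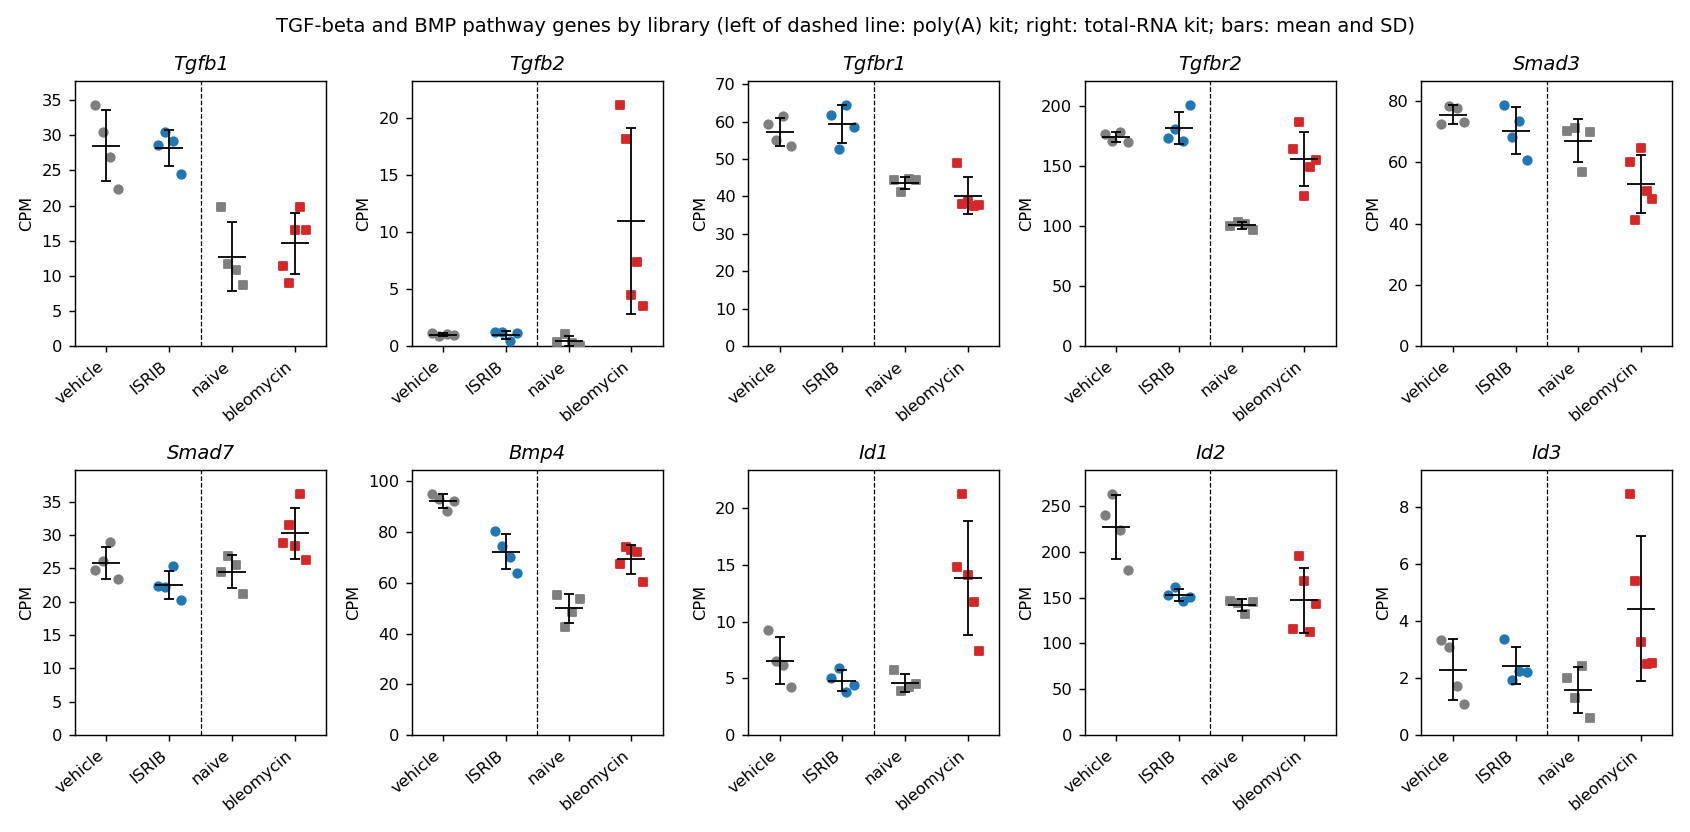
Normalised counts (CPM, y axes from 0) of the 10 genes in each library by group (x axes), with 4 vehicle, 4 ISRIB, 4 naive and 5 bleomycin libraries and bars for mean and SD. Bmp4 and Id2 are lower in every ISRIB than in every vehicle library, and Tgfb2, Tgfbr2, Bmp4, Id1 and Id3 are higher in every bleomycin than in every naive library. The dashed line divides the kits, between which levels are not compared.

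The first comparison asked what ISRIB did to these genes in uninjured AT2 cells. At 24 h, Bmp4 and Id2 fell, and Bmp2 of the further list rose, while the TGF-beta ligands, their receptors and Smad3 did not pass the test. Calls are at an adjusted p under 0.05 in edgeR's quasi-likelihood test, with Benjamini-Hochberg adjustment over all genes tested. Of the 10 genes, 2 were called, both lower, that is 20% of them, against 2.2% of all 12054 genes tested (265 called). In each direction alone the share of all genes was 1.1%. Vehicle and ISRIB libraries did not overlap for the same 2 genes, against 8.65% of all genes tested. The 10 genes' median log2 fold change was -0.06.

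Among the ligands, Bmp4 (ENSMUSG00000021835, chromosome 14, 46383520 to 46390669, GRCm38), which codes for a BMP ligand made in the lung, was at 95.1, 93.2, 88.3 and 92.4 CPM in the vehicle libraries and 80.6, 74.4, 70.1 and 64.0 CPM in the ISRIB libraries. Each ISRIB library was below each vehicle library. The mean went from 92.2 ± 2.87 to 72.3 ± 6.97 CPM (SD, n = 4 each), with a fitted log2 fold change of -0.35, an SE of 0.07 and an adjusted p of 0.0129. Exon sequence of Bmp4 overlaps the opposite-strand gene Gm15217 by 89 bases; whether reads were counted by strand is not stated in the labels or processing notes. Tgfb1 (ENSMUSG00000002603, chromosome 7, 25687002 to 25705077), the most widely expressed TGF-beta ligand gene, was at 28.5 ± 5.07 and 28.2 ± 2.58 CPM, with overlapping groups and a fitted log2 fold change of -0.02, with an SE of 0.11 and an adjusted p of 0.963. Tgfb2 (ENSMUSG00000039239, chromosome 1, 186622792 to 186705989) stood at about 1 CPM in both groups, from 49 counts in all vehicle and 52 in all ISRIB libraries, with a log2 SE of 0.35, so a modest change was not detectable at this depth.

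The receptor genes stayed near their vehicle levels. Tgfbr1 (ENSMUSG00000007613, chromosome 4, 47353222 to 47414931), the type I receptor kinase, was at 57.3 ± 3.71 and 59.3 ± 5.03 CPM. Tgfbr2 (ENSMUSG00000032440, chromosome 9, 116084293 to 116175360), the type II receptor that binds ligand first, was at 174 ± 4.15 and 182 ± 13.4 CPM. Their log2 fold changes were 0.05 and 0.06 (adjusted p = 0.817 and 0.658), and both pairs of groups overlapped. Smad3 (ENSMUSG00000032402, chromosome 9, 63646767 to 63757994), the mediator that carries the TGF-beta signal to the nucleus, was at 75.6 ± 3.06 and 70.4 ± 7.61 CPM (log2 fold change -0.10, adjusted p = 0.534). Smad7 (ENSMUSG00000025880, chromosome 18, 75367529 to 75395935), the inhibitory SMAD that both pathways induce, was at 25.8 ± 2.42 and 22.6 ± 2.08 CPM. Its log2 fold change of -0.20 (SE 0.09) had an unadjusted p of 0.0390 and an adjusted p of 0.279.

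Of the ID genes, Id2 (ENSMUSG00000020644, chromosome 12, 25093799 to 25097140) was at 241, 264, 224 and 181 CPM in vehicle libraries and at 153, 162, 146 and 150 CPM in ISRIB libraries. The lowest vehicle library lay above the highest ISRIB library, and the ISRIB libraries were closer together. The mean went from 227 ± 35.1 to 153 ± 6.77 CPM, with a fitted log2 fold change of -0.57, an SE of 0.08 and an adjusted p of 0.00309. Id1 (ENSMUSG00000042745, chromosome 2, 152736251 to 152737410) was at 9.29, 6.51, 6.16 and 4.27 CPM in vehicle and 5.04, 5.93, 3.76 and 4.39 CPM in ISRIB libraries, with overlap. Its log2 fold change of -0.45 (SE 0.21) had an unadjusted p of 0.0455 and an adjusted p of 0.298. Id3 (ENSMUSG00000007872, chromosome 4, 136143497 to 136145755) was at 2.30 ± 1.09 and 2.43 ± 0.65 CPM, a log2 fold change of 0.11 with an adjusted p of 0.916. Among the cell type markers, Etv5 of AT2 cells (log2 fold change -0.28, adjusted p = 0.00817), Krt19 of transitional cells (-0.40, adjusted p = 0.0170) and Tppp3 of airway cells (-0.43, adjusted p = 0.00384) also fell with ISRIB, and no fibroblast marker was called. ISRIB replicate 4, lowest in airway markers, was also lowest in Bmp4, and without it Bmp4 stood at -0.29 (adjusted p = 0.0340) and Id2 at -0.56 (adjusted p = 0.00982). Their part in the changes of Bmp4 and Id2 was not tested.

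Of the 59 further pathway genes, 45 passed the filter on low counts in the poly(A) libraries and 1 was called (2.22%), at about the share of all genes. That gene was Bmp2, a BMP ligand gene, at 29.4, 30.3, 35.6 and 29.4 CPM in vehicle and 43.9, 36.1, 47.0 and 43.2 CPM in ISRIB libraries. The groups did not overlap, and the log2 fold change was 0.44 (SE 0.09, adjusted p = 0.0147). The call on Bmp2 was lost without vehicle replicate 1 (adjusted p = 0.0594) or vehicle replicate 2 (adjusted p = 0.0573). No gene was called among the 3 other ligands of the TGF-beta, activin and GDF group, 10 receptors, 6 SMADs, 8 latent TGF-beta storage and activation genes, 10 antagonists or 7 TGF-beta target genes tested. The most abundant uncalled genes of these roles and of the BMP ligands were Tgfb3 (log2 fold change 0.08), Bmp3 (0.12), Bmpr2 (0.11), Smad5 (0.03), Ltbp3 (0.09), Ski (0.04) and Tgfbi (0.10), with adjusted p-values from 0.387 to 0.858 in the same test.

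The list of BMP target genes had 4 of 5 members tested and 0 called by edgeR, with 3 at an unadjusted p under 0.05, against 1934 of all 12054 genes tested (16.04%), and a median log2 fold change of -0.57, against -0.0001 over all genes tested. Smad6, an inhibitory SMAD induced by BMP, was at 20.4, 17.0, 23.5 and 15.7 CPM in vehicle and 15.5, 15.5, 15.6 and 12.9 CPM in ISRIB libraries (log2 fold change -0.37, adjusted p = 0.122). Smad9 was at 2.98, 2.44, 3.34 and 2.04 CPM in vehicle and 2.17, 1.36, 0.98 and 1.05 CPM in ISRIB libraries (log2 fold change -0.93, adjusted p = 0.107). Atoh8, a helix-loop-helix factor gene, was at 3.33, 3.08, 3.02 and 3.59 CPM and then at 2.55, 1.44, 1.70 and 1.75 CPM (log2 fold change -0.78, adjusted p = 0.0956). Smad6 and Atoh8 did not overlap between groups, and Smad9 overlapped by a single library. Of all 45 further pathway genes tested, 4 did not overlap (Bmp2, Itgav, Smad6 and Atoh8), which is near the 8.65% of all genes tested. Bambi, which codes for a decoy receptor, stood at a log2 fold change of 0.19 (adjusted p = 0.455). The genes of the BMP target list were named after their values were seen. With no filter on low counts, Smad6 (adjusted p = 0.0187), Smad9 (0.0446) and the co-receptor gene Tgfbr3 (log2 fold change -0.55, adjusted p = 0.00344) were also called by edgeR, all lower. That setting called 648 of 22120 genes, against 265 of 12054 in the main fit. It also took the adjusted p of Id2 in edgeR's test from 0.0031 to 2.9e-18. Smad6 and Tgfbr3 were called in no other setting, and Smad9 only without ISRIB replicate 1.

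The second comparison asked how the same genes stood in AT2 cells 14 days after bleomycin. Tgfb2, Tgfbr2, Bmp4 and Id1 rose, and the other 6 genes did not pass the test. The 4 called genes are 40% of the 10, against 20.5% of all 11223 genes tested (2304 called). In the higher direction alone the share of all genes was 11.2%, and in the lower direction 9.31%. The 10 genes' median log2 fold change was 0.39, against 0.0026 over all genes tested. Groups did not overlap for 5 of the 10 genes, against 19.7% of all genes. The called genes include Tgfb2, and those without overlap include Tgfb2 and Id3. Both passed the filter on low counts only through their bleomycin libraries, so they could enter these counts only as higher.

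Tgfb2 was close to the floor of detection in naive libraries, at 0.34, 1.07, 0.30 and 0 CPM, and was at 21.2, 18.2, 4.49, 7.43 and 3.48 CPM in bleomycin libraries. Each bleomycin library lay above each naive library, with bleomycin replicates 1 and 2 well above replicates 3, 4 and 5. The log2 fold change was 4.43 (SE 0.73, adjusted p = 3.17e-04 in edgeR's test). In raw counts there were 7 in all naive and 256 in all bleomycin libraries, and the ratio of the summed counts at equal depth was 20.7, with a 95% Clopper-Pearson interval of 9.91 to 52.1 that covers counting error only. Without naive replicate 2, which held 5 of the 7 naive counts, the log2 fold change of Tgfb2 was 5.53. Tgfb2 passed the filter on low counts only through its bleomycin libraries. Its exons overlap the opposite-strand gene Gm29491 by 124 bases.

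Bmp4 was at 55.0, 42.5, 48.6 and 53.7 CPM in naive and 67.5, 74.2, 72.8, 72.1 and 60.2 CPM in bleomycin libraries. The groups did not overlap, and the log2 fold change was 0.48 (SE 0.13, adjusted p = 0.0117). The call on Bmp4 was lost without naive replicate 2, its lowest library (log2 fold change 0.40, adjusted p = 0.0585). Tgfb1 did not follow Tgfb2: it was at 19.8, 11.8, 10.8 and 8.64 CPM in naive and 11.4, 9.02, 16.6, 19.8 and 16.5 CPM in bleomycin libraries, with wide overlap and a log2 fold change of 0.20 (adjusted p = 0.659).

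Tgfbr2 was at 100.3, 104, 102 and 97.2 CPM in naive libraries, which lay close together, and at 165, 186, 125, 149 and 155 CPM in bleomycin libraries, all of them higher. The log2 fold change was 0.63 (SE 0.12, adjusted p = 0.00117). Tgfbr1, its partner, was at 43.7 ± 1.63 CPM in naive (SD, n = 4) and 40.2 ± 4.91 CPM in bleomycin libraries (SD, n = 5), a log2 fold change of -0.12 (adjusted p = 0.576). Smad3 was at 67.1 ± 6.96 and 53.1 ± 9.54 CPM, and its log2 fold change of -0.34 (SE 0.14) had an unadjusted p of 0.0286 and an adjusted p of 0.102. Smad7 was at 24.5 ± 2.45 and 30.3 ± 3.83 CPM (log2 fold change 0.29, adjusted p = 0.210). Naive and bleomycin libraries overlapped for Tgfbr1, Smad3 and Smad7.

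Id1 was at 5.70, 3.85, 4.20 and 4.47 CPM in naive and 14.8, 21.3, 14.1, 11.8 and 7.44 CPM in bleomycin libraries, with no overlap. The log2 fold change was 1.61 (SE 0.32, adjusted p = 0.00151), from 64 and 350 counts in all, a ratio of 3.10 with a 95% counting interval of 2.37 to 4.11. Id3 was at 2.01, 1.28, 2.40 and 0.60 CPM in naive and 8.46, 5.41, 3.25, 2.48 and 2.53 CPM in bleomycin libraries. Its groups did not overlap either, but its log2 fold change of 1.48 (SE 0.55) missed the threshold, with an adjusted p of 0.0632, and rested on 22 and 107 counts. Like Tgfb2, Id3 passed the filter on low counts only through its bleomycin libraries. Id2, by far the most abundant of the ID genes, was at 142 ± 6.30 and 147 ± 35.3 CPM, and the bleomycin libraries, from 113 to 195 CPM, spread to either side of the naive ones, from 133 to 146 CPM (log2 fold change 0.05, adjusted p = 0.833).

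The promoters of Tgfb2, Tgfbr2 and Bmp4, the ligand and receptor genes that rose after bleomycin, are shown because SMAD proteins are known to bind the letters CAGAC or, on the other strand, GTCTG, and a GC-rich form, GGCGCC. The sequences are the 250 bases before each RefSeq gene start (GRCm38.p6), written 5′ to 3′ on the gene's strand, with CAGAC in capitals. These genes lie on the minus strand: the Tgfb2 window is chr1:186705990-186706239, the Tgfbr2 window chr9:116175364-116175613 and the Bmp4 window chr14:46390670-46390919.
Tgfb2: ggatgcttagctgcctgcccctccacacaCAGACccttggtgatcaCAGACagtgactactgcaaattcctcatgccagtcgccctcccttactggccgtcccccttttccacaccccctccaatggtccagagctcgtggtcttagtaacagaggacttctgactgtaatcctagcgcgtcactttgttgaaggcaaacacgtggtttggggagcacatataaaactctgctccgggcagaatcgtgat
Tgfbr2: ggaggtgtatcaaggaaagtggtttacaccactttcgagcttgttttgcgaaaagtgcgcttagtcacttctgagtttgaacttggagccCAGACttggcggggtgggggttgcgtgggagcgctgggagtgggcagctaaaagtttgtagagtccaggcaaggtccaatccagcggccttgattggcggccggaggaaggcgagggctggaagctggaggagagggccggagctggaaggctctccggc
Bmp4: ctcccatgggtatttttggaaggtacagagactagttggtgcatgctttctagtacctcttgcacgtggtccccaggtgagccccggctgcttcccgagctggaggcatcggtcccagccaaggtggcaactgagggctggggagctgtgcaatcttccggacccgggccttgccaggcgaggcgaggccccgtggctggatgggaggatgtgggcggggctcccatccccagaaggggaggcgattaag
The Tgfb2 window held 2 copies of CAGAC, starting 221 and 204 bases before the gene start, and overlaps an exon of the antisense gene Gm29491. The Tgfbr2 window held 1 copy, 160 bases before the start, and the Bmp4 window held none of these letters. GGCGCC was in none of these windows. Genes that were not called after bleomycin held such letters too: the Id3 window had 2 copies of the first motif, the Id2 window 1 copy of the GC-rich form, and the windows of 2 Tgfbr1 starts 1 copy of each. CAGAC or GTCTG was present in 42.2% and GGCGCC in 9.59% of all 32851 windows of the same length, so single matches are common. Windows were matched for 8 of the 10 genes, without Smad7 and Id1.

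Of the 59 further pathway genes, 41 were tested after bleomycin and 18 were called (43.9%, against 20.5% of all genes tested), 12 higher and 6 lower. Groups did not overlap for 17 of the 41, 15 of them called, against 19.7% of all genes. The median log2 fold change of the 41 was 0.07. Ccn2 and Ltbp2, among the 18, would not have passed the filter on low counts on their naive libraries alone. Among the other ligands of the TGF-beta and activin group, 2 of 3 rose, against 11.2% of all genes tested. Tgfb3 went from 30.4 ± 3.18 to 58.2 ± 4.59 CPM (log2 fold change 0.94, adjusted p = 8.29e-05). Inhbb, which codes for the activin B chain, went from 10.3 ± 0.70 to 32.6 ± 6.20 CPM (1.65, adjusted p = 1.15e-05). Among the BMP ligands beside Bmp4, 2 of 3 fell, against 9.31% of all genes tested. Bmp2 was at 27.5, 26.3, 16.8 and 23.6 CPM in naive and 7.94, 7.94, 10.1, 6.19 and 17.9 CPM in bleomycin libraries, with a single bleomycin library inside the naive range (log2 fold change -1.20, adjusted p = 0.00408). Bmp3, which codes for an atypical BMP that opposes the others, was at 48.9 to 57.5 CPM in naive and 21.7 to 34.0 CPM in bleomycin libraries (log2 fold change -0.99, adjusted p = 2.36e-04).

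Of 7 tested genes listed under latent TGF-beta storage and activation, 4 rose, against 11.2% of all genes tested. Ltbp3, Ltbp4 and Furin did not pass the test. The 4 include Ltbp2, which would not have passed the filter on low counts on its naive libraries alone. Itgb6, the beta chain of the epithelial integrin that activates latent TGF-beta, was at 14.8, 17.5, 16.2 and 17.9 CPM in naive and 76.4, 65.9, 50.5, 31.9 and 44.5 CPM in bleomycin libraries (log2 fold change 1.69, adjusted p = 2.87e-05). Its alpha chain partner Itgav was at 94.6 to 106 CPM and 127 to 141 CPM (0.43, adjusted p = 0.00654). Thbs1, which codes for thrombospondin 1, another activator, went from 96.6 ± 15.4 to 292 ± 57.0 CPM (1.60, adjusted p = 1.26e-06). Itgb6, Itgav and Thbs1 had no overlap between groups. Ltbp2, of the latent TGF-beta binding protein family, had 18 and 161 counts in all and overlapping groups (2.35, adjusted p = 0.0195), and it was not called without naive replicate 1, 2 or 3, without bleomycin replicate 2 or 5, with a minimum of 5 CPM or with limma's voom (adjusted p = 0.165); without naive replicate 4 it stood at 2.97.

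Of 8 receptors tested, Acvr1b (log2 fold change 0.57, adjusted p = 0.0269) and Bmpr2 (0.39, adjusted p = 0.0167) rose, which is near the 20.5% called among all genes, and both calls were lost without naive replicate 1 or 3, that on Acvr1b also without naive replicate 2. Of 6 SMADs tested, only Smad5, a BMP mediator, was called (16.7%, against 20.5% of all genes tested). The log2 fold change of Smad5 was -0.40 (adjusted p = 0.0363), with overlapping groups. Its call was lost when any single library but bleomycin replicate 1 was left out (adjusted p = 0.055 to 0.102). Of 9 antagonists tested, 4 were called (44.4%, against 20.5% of all genes tested). Ski, a SMAD corepressor gene (0.45, adjusted p = 0.00554), and Pmepa1, a TGF-beta-induced inhibitor gene (0.87, adjusted p = 4.73e-04), rose. Bambi and the ubiquitin ligase gene Smurf2 (-0.45, adjusted p = 0.00904) fell. Bambi was at 36.6, 36.3, 41.7 and 42.3 CPM in naive and 9.26, 10.5, 19.4, 14.5 and 21.7 CPM in bleomycin libraries, with no overlap (-1.36, adjusted p = 2.58e-04).

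Of 7 TGF-beta target genes tested, 4 rose and 1 fell, with Smad7 outside this list. Among all genes tested, 11.2% rose and 9.31% fell. The matricellular gene Ccn2 was at 0.34, 0.64, 0.60 and 0.60 CPM in naive and 10.05, 24.0, 5.27, 7.43 and 4.91 CPM in bleomycin libraries, from 8 and 260 counts (log2 fold change 4.15, adjusted p = 1.15e-04; ratio of counts 18.4, 95% interval 9.21 to 43.1). Ccn2, like Tgfb2 and Id3, passed the filter on low counts only through its bleomycin libraries. Ltbp2, also in this list, would not have passed on its naive libraries alone. Without bleomycin replicate 2 the log2 fold change of Ccn2 was 3.56. Tgm2, a transglutaminase gene, was at 11.8 to 18.2 CPM in naive and 35.3 to 54.5 CPM in bleomycin libraries (1.48, adjusted p = 2.55e-05). Exons of Tgm2 overlap opposite-strand genes by 1003 bases, those of Ccn2 by 665, of Ltbp2 by 764, of Itgav by 634, of Tgfb3 by 420 and of Thbs1 by 208 bases. Pmepa1, in the target list as well, was at 25.6 to 31.9 and 45.2 to 67.0 CPM. Tgfbi, an extracellular matrix gene named for its induction by TGF-beta, moved the other way, from 40.2 ± 4.54 to 19.7 ± 6.99 CPM (-1.01, adjusted p = 0.00355). Of the 4 BMP target genes tested, Bambi alone was called (25%, against 20.5% of all genes tested). Smad6 stood at a log2 fold change of -0.28 (adjusted p = 0.542). The most abundant uncalled genes of the other roles were Gdf15 (1.31, adjusted p = 0.0989), Bmp5 (-0.36), Bmpr1a (-0.18), Smad2 (-0.16), Ltbp3 (0.29, adjusted p = 0.0848), Smurf1 (-0.06) and Skil (-0.30), those without a stated value having adjusted p-values from 0.111 to 0.813. Gdf15 was called without bleomycin replicate 3 (adjusted p = 0.0421) and Ltbp3 without bleomycin replicate 2 (0.0314) or with library totals (0.0454).

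Gdf11, a ligand gene of the activin branch that was too low for the test and was named after its values were seen, was at 0.60 to 0.89 CPM in naive and 2.35 to 7.12 CPM in bleomycin libraries, from 11 and 108 counts. The groups did not overlap, and the ratio of summed counts was 5.56 (95% interval 2.99 to 11.5).

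**Figure D2:**
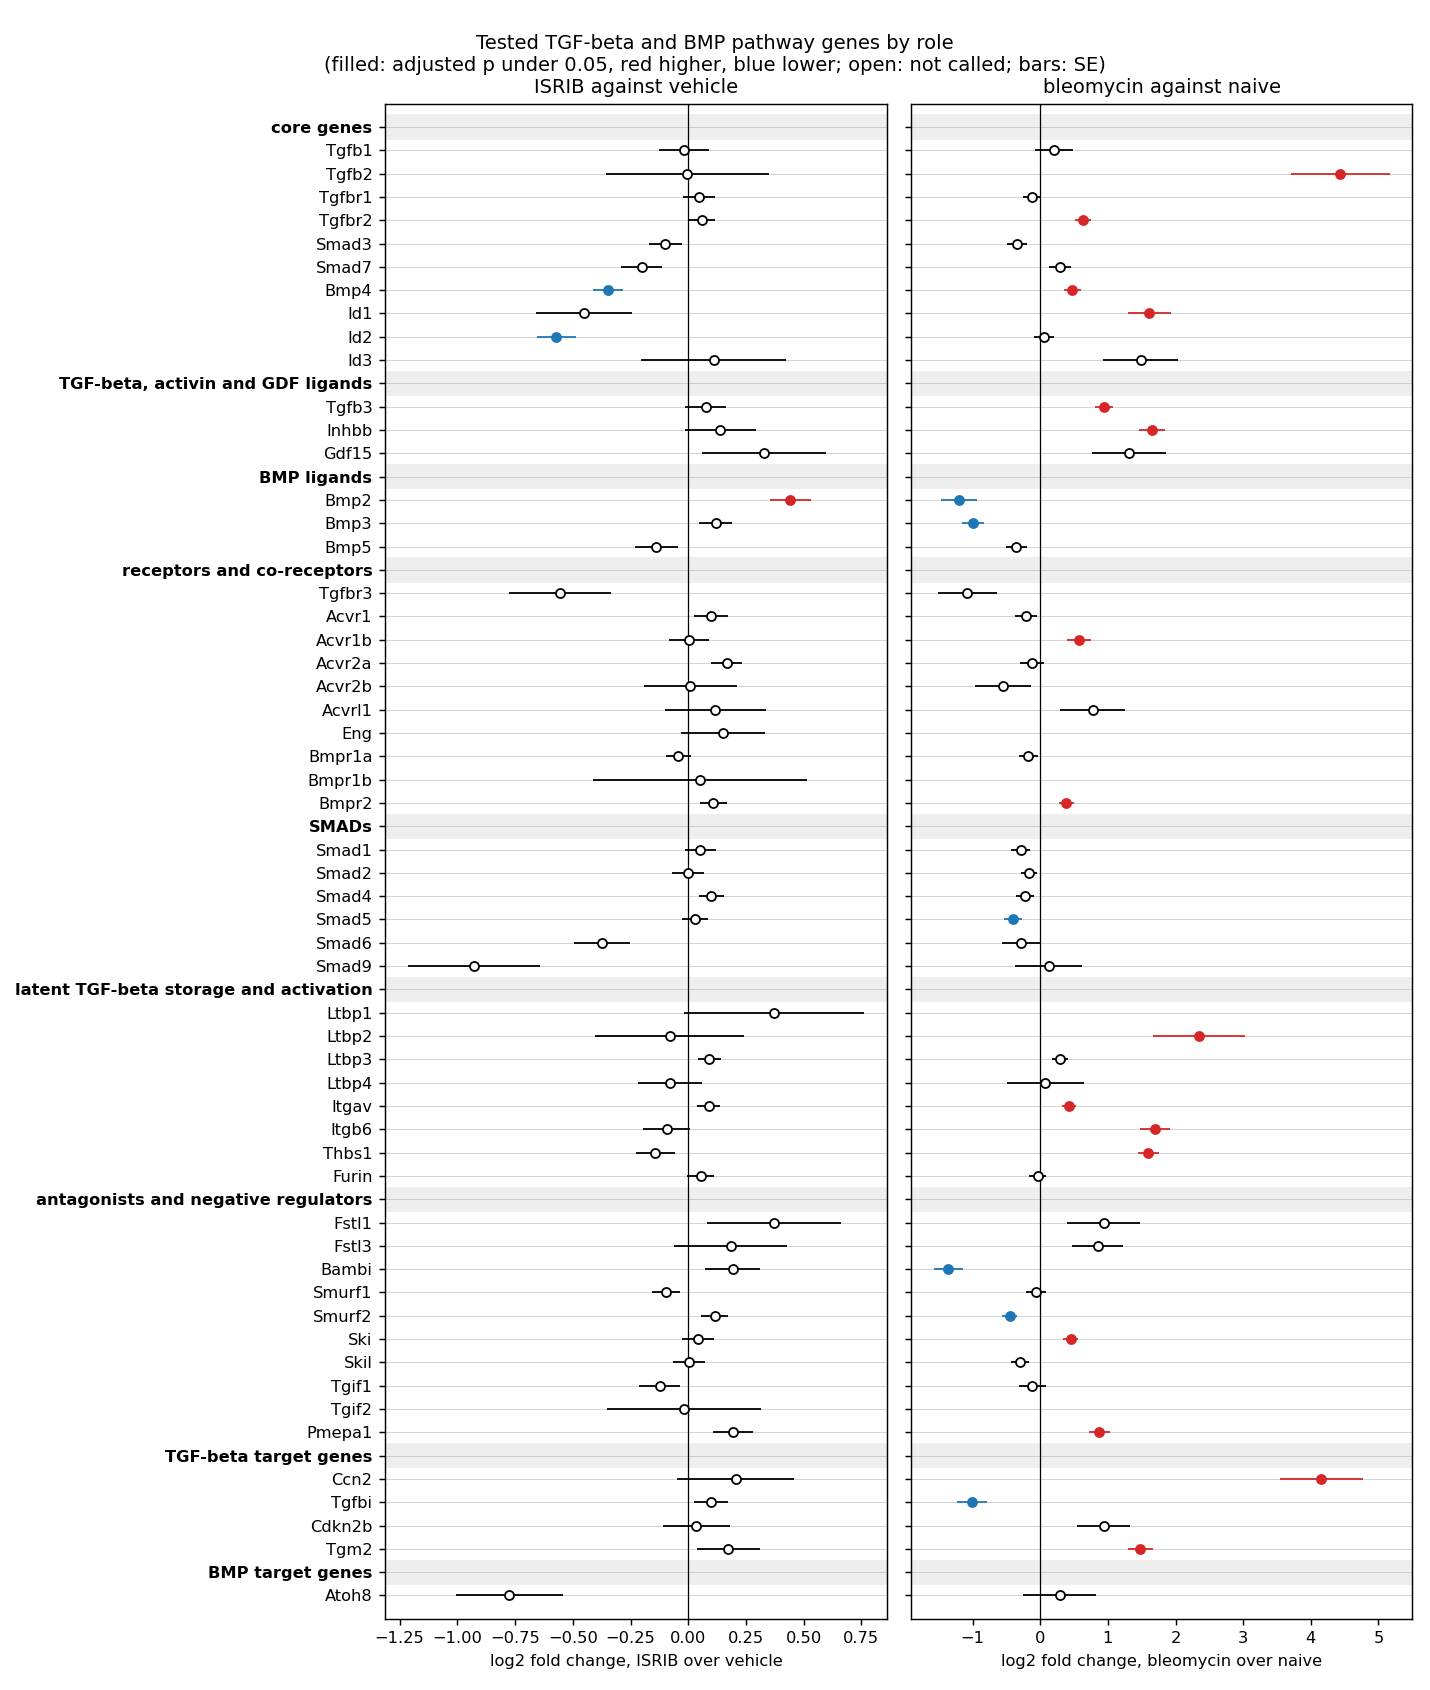
Log2 fold changes (x axes) of the tested genes by role (y axis) for ISRIB over vehicle, left, and bleomycin over naive, right. Points are edgeR estimates, bars are SEs and filled points passed an adjusted p of 0.05; the x axes differ in range, and a gene with several roles is drawn once. In the left panel 3 points are filled (Bmp4, Id2 and Bmp2), in the right panel 22.

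Markers of other cell types also moved with bleomycin. The 10 fibroblast and smooth-muscle markers summed to 5.36 to 14.8 CPM in naive libraries and to 60.8, 129.6, 20.9, 43.3 and 30.2 CPM in bleomycin libraries 1 to 5, with 9 of 10 detected and Lum at 0. Of the 4 tested, Col1a1, Col1a2 and Col3a1 rose. With all 10 markers summing to 5.36 CPM in naive replicate 4, these collagen genes could not all have passed the filter on low counts on their naive libraries alone. A gene that passed only through its bleomycin libraries could be called only as higher. Bleomycin replicates 1 and 2, with the highest of these sums and the lowest AT2 marker sums, also had the most Tgfb2, Ccn2, Tgfbr2, Id1 and Id3. Of the 10 AT2 markers, Etv5 (log2 fold change -0.43, adjusted p = 0.0199) and Nkx2-1 (-0.46, adjusted p = 0.00685) fell and Napsa rose. Endothelial markers summed to 80.8 to 84.9 and 104 to 169 CPM, and macrophage markers to 16.03 to 28.8 and 40.4 to 72.8 CPM, with Marco and C1qa at 0. AT1 markers summed to 1327 to 1553 and 1985 to 2525 CPM, and transitional-cell markers to 315 to 359 and 642 to 960 CPM. Called higher were 6 of 8 AT1 markers tested and 6 of 6 transitional-cell markers, against 11.2% of all genes tested. For endothelial markers it was 3 of 7 tested, and for macrophage markers 1 of 3. The part of these marker changes, and of the lower AT2 marker sums in some bleomycin libraries, in the changes of Tgfb2, Tgfbr2, Bmp4 and Id1 was not tested.

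Without bleomycin replicates 1 and 2, a choice made after seeing the data, the same 4 of the 10 genes were called by edgeR. Tgfb2 then stood at a log2 fold change of 3.32 (adjusted p = 0.00197), Tgfbr2 at 0.51 (adjusted p = 0.00278), Bmp4 at 0.46 (adjusted p = 0.0204) and Id1 at 1.29 (adjusted p = 0.0104). Ccn2 stood at 3.32 (adjusted p = 3.33e-04). Of the 18 further pathway genes called, 17 were called again. Ltbp2 was not, and Ltbp3 (0.36, adjusted p = 0.0204) was added. Tgfb2 and Ccn2 again passed the filter on low counts only through their bleomycin libraries. Bleomycin replicates 3, 4 and 5 still had fibroblast and smooth-muscle marker sums of 20.9, 43.3 and 30.2 CPM, above every naive library. This fit therefore does not set that difference aside.

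**Figure D3:**
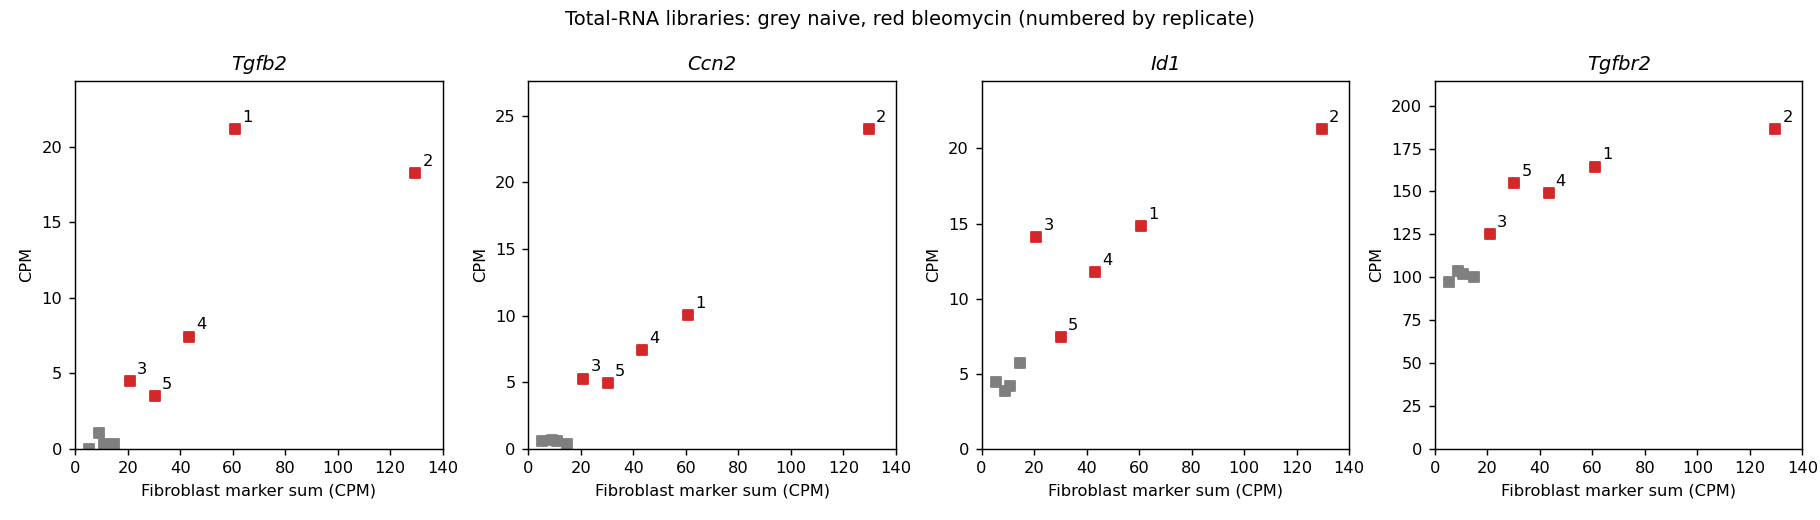
Level of Tgfb2, Ccn2, Id1 and Tgfbr2 (CPM, y axes from 0) against the summed level of 10 fibroblast and smooth-muscle markers (CPM, x axes) in the 4 naive (grey) and 5 bleomycin libraries (red, numbered by replicate). Bleomycin replicates 1 and 2 lie farthest right, and every bleomycin library lies above every naive library on both axes in all panels.

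The makeup of each gene family within a library is free of the scaling between libraries, and is given as a description, since it was looked at after the values were seen. The ratio of Bmp4 to Bmp2, each per kb, was 3.92 to 5.12 in vehicle and 2.35 to 3.26 in ISRIB libraries, and 2.56 to 4.57 in naive and 5.32 to 18.4 in bleomycin libraries. The ISRIB libraries thus lay below the vehicle libraries and the bleomycin libraries above the naive ones. Tgfb2 made up 0.76 to 1.05% of the 3 TGF-beta ligand transcripts per kb in vehicle, 0.42 to 1.12% in ISRIB, 0 to 1.78% in naive and 2.91 to 15.03% in bleomycin libraries, and Tgfb3 was the largest share in every library, at 67.0 to 84.7%. Id2 made up 90.9 to 94.6% of Id1 to Id3 in vehicle, 91.0 to 93.0% in ISRIB and 90.9 to 93.6% in naive libraries, and 73.0 to 88.2% in bleomycin libraries.

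**Figure D4:**
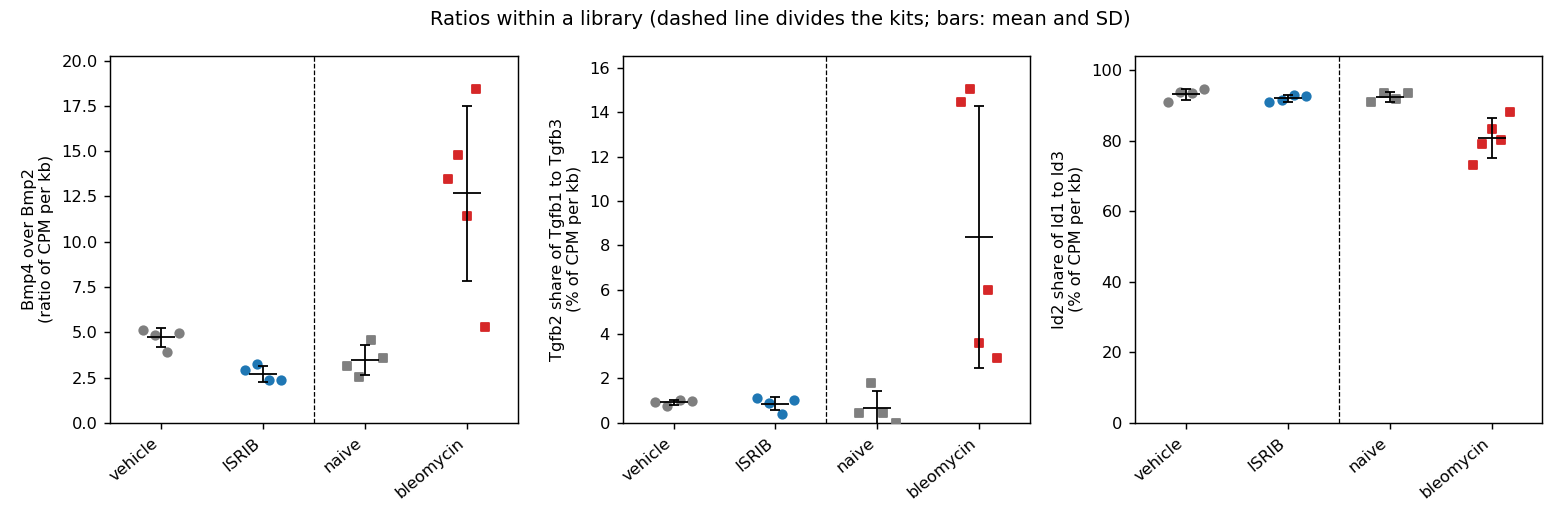
Ratio of Bmp4 to Bmp2, share of Tgfb2 among Tgfb1 to Tgfb3 and share of Id2 among Id1 to Id3 (y axes from 0, all from CPM per kb) in each library by group (x axes), with bars for mean and SD. The Bmp4 to Bmp2 ratio is below vehicle in all 4 ISRIB libraries and above naive in all 5 bleomycin libraries, and the Id2 share is lower in all 5 bleomycin libraries than in all 4 naive ones.

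Set side by side, Bmp4 stood at a log2 fold change of -0.35 after ISRIB and 0.48 after bleomycin, and Bmp2 at 0.44 and -1.20. Id2 stood at -0.57 and 0.05, and Id1 at -0.45 and 1.61. The comparisons share no library, but kit, RNA input and time after treatment differed along with the agent, so a difference between them was not tested.

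The genes with the most similar pattern across the same libraries were found by the smallest root mean square difference of centred log2 CPM among genes of at least 5 mean CPM. For Bmp4 they were Wdr91 and Rtkn over the 8 poly(A) libraries (0.06 each) and Mlf2 and St14 over the 9 total-RNA libraries (0.08 and 0.09). For Id2 they were Nuak2 and Nrde2 over the 8 poly(A) libraries (0.09 each). After bleomycin they were Dhx32 and Cep170b for Tgfbr2 (0.06 and 0.07), Mat1a and Ffar4 for Id1 (0.18 and 0.23), and Ifitm3 and Tpm2 for Tgfb2 (0.57 and 0.58), whose low naive counts leave any match looser.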

How the data were processed

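RNA was measured in 17 libraries of sorted mouse AT2 cells, 8 made with a poly(A) kit and 9 with a total-RNA kit. The deposited tables hold whole-number counts of reads per Ensembl gene, made by the authors with STAR 2.6.0 and HTSeq 0.11.2 on mm10 after Trimmomatic 0.36, per the submitters' processing notes; the strand setting and annotation they used are not given there. Of 43430 gene rows, 42546 matched GENCODE M21 on GRCm38, which gave symbols, positions and exon lengths.

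The genes and lists described were chosen with earlier results of these data known. Groups came from the sample labels, and no column was left unused. In each kit, low genes were removed with filterByExpr (minimum count 10 and minimum total 15) and libraries scaled by TMM and tested with edgeR 4.0.16 (quasi-likelihood, R 4.3.3), with Benjamini-Hochberg adjustment over all genes tested, and called below 0.05. CPM is the count over the TMM-scaled library size, and the SE is the log2 fold change over the square root of F. The script was tested on simulated data. Alternatives were DESeq2 1.42.0, limma 3.58.1 (voom), upper-quartile and DESeq2 scaling, library totals only, a robust spread, leaving out ribosomal-RNA-like and mitochondrial genes, no filter, a minimum of 5 CPM, a replicate block and leaving out each replicate. All 10 genes are described; of the list, the called genes and the most abundant uncalled gene of each role were to be named. No replicate pair agreed within sampling noise (chi-square per degree of freedom 3.53 to 48.1). Promoter sequences are from RefSeq (GRCm38.p6).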

Additional observations from a re-analysis of the deposited data

Results flagged for a closer look

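In 5 of the 40 groups of values of the 10 genes, the highest or lowest library stood apart from the others by Dixon's test at the 95% level; chance gives about 1 in 20. Tgfb2 was lowest in ISRIB replicate 3, at 0.447 CPM (gap 0.933 of the range). Tgfbr1 was lowest in naive replicate 2, at 41.2 CPM (0.873), and highest in bleomycin replicate 1, at 48.9 CPM (0.860). Smad3 was lowest in naive replicate 3, at 56.7 CPM (0.918), as was Id2, at 133 CPM (0.856). None of these 5 values belongs to a comparison that was called.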

How the results depend on the processing

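The 2 calls after ISRIB, on Bmp4 and Id2, were made under every alternative run; leaving out 1 library at a time, Bmp4 ranged from -0.40 to -0.29 and Id2 from -0.67 to -0.49 (log2). After bleomycin 3 to 5 of the 10 genes were called: Bmp4 was lost without naive replicate 2, and Id3 was added with library totals (adjusted p = 0.0488), DESeq2 (0.0424) or without bleomycin replicate 4 (0.0384). Of the further pathway genes, 15 to 19 were called after bleomycin. After ISRIB 4 were called with no filter on low counts (1 higher, 3 lower) and 0 to 2 with 1 library left out, 0 without vehicle replicate 1 or 2 and 2, with Smad9 added, without ISRIB replicate 1. Over all genes, ISRIB gave 265 calls, 648 with no filter, 406 with DESeq2, and 86, 102 and 159 without vehicle replicate 1, vehicle replicate 2 and ISRIB replicate 4; library totals gave 169 higher and 111 lower against 133 and 132. After bleomycin the split was 1259 higher and 1045 lower, 1479 and 814 with library totals and 1024 and 1178 with voom. Directions turned for uncalled genes: with library totals Tgfb2 stood at 0.012 after ISRIB and Smurf1 at 0.0089 after bleomycin, and leaving out 1 library gave ranges after ISRIB of -0.11 to 0.082 for Tgfb1, -0.12 to 0.22 for Tgfb2, -0.11 to 0.34 for Id3, -0.015 to 0.12 for Tgfb3 and -0.020 to 0.079 for Ski, and after bleomycin of -0.064 to 0.14 for Id2 and -0.11 to 0.060 for Smurf1. The cause of these changes was not tested. Same-numbered libraries did not deviate together (correlations -0.109 to 0.0849 and -0.0393 to 0.0474), so the numbers were not taken as pairs; with a replicate block, 2 and 4 of the 10 genes and 1 and 19 of the pathway genes were called, among 277 and 2187 genes in all. The depth of the total-RNA libraries limits Tgfb2, Id3, Ccn2 and Ltbp2.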
